A study of Mus musculus with 3 samples.

Results

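Lyve1 Reln lymphatic capillary endothelial cells of mouse ear skin, 1199 of the 37961 cells that passed filtering in 3 single-cell RNA libraries, were chosen from raw UMIs, the molecules counted for each gene in each cell. The rule asked for at least 2 UMIs of Prox1, 3 of Lyve1 and 1 of Reln. It allowed at most 1 UMI of Foxp2, of Nts, of Gdf15 plus Gpnmb and of Mki67 plus Top2a, and 0 of Ptprc, the gene of CD45. These limits set aside Foxp2 collecting-type cells, other lymphatic states, cycling cells and leukocytes. Levels of the genes of the rule, and numbers of cells, are therefore descriptions of the choice.

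The libraries were adult Lang-DTA (Langerin-DTA mice, 8 weeks), adult WT (C57BL/6J mice, 8 weeks) and young WT (C57BL/6J mice, 4 weeks), none of them treated. In Langerin-DTA mice a diphtheria toxin subunit is placed under human Langerin (CD207) regulatory sequence, which is active chiefly in Langerhans cells of the epidermis. Per the growth protocol hemizygous Langerin-DTA males were bred with wild-type females, and wild types set beside Langerin-DTA mice were littermates. Each library was 1 pool, with 4 male and 6 female mice in adult Lang-DTA, 6 male and 4 female in adult WT, and 5 male and 3 female in young WT. Lymphatic endothelium, blood endothelium, CD45-positive cells and cells lacking both CD45 and CD31 were sorted and mixed at equal shares, so the sort set how many lymphatic cells a library held. With 1 library for each condition there is no replicate check, no test was made, and cells are not replicates. The 95% intervals below cover counting error only. An imiquimod condition named in the protocol is not analysed here.

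Lymphatic capillaries are the blind-ended first vessels of the lymphatic tree, which take up tissue fluid through loose junctions and admit leukocytes. Prox1 is the transcription factor that sets lymphatic identity, Lyve1 a receptor for hyaluronan and Reln the secreted glycoprotein reelin. Ccl21a encodes a chemokine that draws cells bearing Ccr7, among them Langerhans and dendritic cells on their way from skin to lymph node.

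There were 210 capillary cells in adult Lang-DTA, 436 in adult WT and 553 in young WT ears. They were 9.09%, 28.7% and 14.0% of the 2309, 1519 and 3946 lymphatic cells (Prox1 of at least 2 UMIs, no Ptprc) of these libraries, with 95% exact binomial intervals of 7.95 to 10.3%, 26.4 to 31.1% and 12.9 to 15.1%. With each lymphatic cell thinned to 3000 UMIs before the rule the shares were 14.3%, 39.2% and 24.7%. The limits cut the libraries unequally. The limit on Gdf15 plus Gpnmb left 241 of 478 cells in adult Lang-DTA, 438 of 484 in adult WT and 573 of 680 in young WT, so the shares describe the rule and were not compared. At that limit 53 capillary cells of adult Lang-DTA held 1 UMI and 35 cells were left out with 2, against 62 and 20 in adult WT and 90 and 29 in young WT. At the Foxp2 limit 47 cells held 1 UMI and 11 were left out with 2 in adult Lang-DTA, against 137 and 71 in adult WT and 188 and 137 in young WT. At the lower limits, 26, 13 and 17 capillary cells of these libraries held 1 UMI of Reln and 9, 5 and 11 were left out with 0.

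The capillary cells had a median of 6376, 4947 and 6632 UMIs in adult Lang-DTA, adult WT and young WT, and 1566033, 2389661 and 4052046 UMIs in all. Levels below are CPM, the UMIs of a gene per 1000000 UMIs summed over the capillary cells of a library. Cd207, the Langerin gene, had 3 or more UMIs in 7 cells of the whole adult Lang-DTA library, against 467 in adult WT and 625 in young WT. Pairs of libraries shared 39 to 50 of their barcodes. In capillary cells the summed level of 8 keratinocyte markers was 638, 1140.3 and 442 CPM in adult Lang-DTA, adult WT and young WT, that of 10 blood endothelial markers 1124, 1037 and 753 CPM and that of 6 fibroblast markers 133, 84.1 and 319.8 CPM. Of these only Esm1, in adult WT, was at 0. Macrophage and dendritic markers summed to 55.6, 133 and 160.2 CPM, with Lyz2, C1qa and Cd207 at 0 in adult Lang-DTA. Of these sums Mrc1, which capillary cells also express, made up 51.7, 105 and 109 CPM. Some markers came mostly from single cells, such as Krt10 with 97.4% and Hbb-bs with 99.2% of the adult WT UMIs in 1 cell. Others were spread over many cells. Mrc1 had UMIs in 49, 137 and 202 capillary cells of adult Lang-DTA, adult WT and young WT, and Emcn, the largest part of the blood endothelial sum, in 138, 311 and 396. The part of these cells in the results below was not tested, beyond the values given with such cells left out.

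The label was checked against markers outside the rule. Ccl21a was found in 89.4%, 99.5% and 95.9% of adult Lang-DTA, adult WT and young WT capillary cells thinned to 3000 UMIs (92.4%, 100% and 97.8% before thinning). In blood endothelial cells thinned alike it was found in 0.722%, 0.581% and 1.09%, the background against which these shares are read. Mmrn1, the gene of the lymphatic matrix protein multimerin-1, was found in 96.3%, 98.7% and 99.4%, against 0.722%, 0.258% and 0.705% of blood endothelial cells. Flt4, the receptor of the lymphatic growth factor Vegfc, was found in 59.6%, 70.4% and 73.0%, against 4.29%, 3.35% and 4.87%. Piezo2, a stretch-gated ion channel, was found in 58.0%, 81.9% and 85%, against 3.70%, 3.39% and 6.73%. All 4 genes thus marked the cells as lymphatic in each library. Ccl21a, Flt4 and Piezo2 set them less apart from Foxp2 collecting-type lymphatic cells, over which the log2 ratio of CPM in adult Lang-DTA, adult WT and young WT was 0.69, 0.59 and 0.75 for Ccl21a, 0.43, 0.55 and 0.50 for Flt4 and 1.04, 0.75 and 0.93 for Piezo2. Blood endothelial cells were deeper, with medians of 8174, 9225 and 10878 UMIs before thinning. Collecting and valve markers divided. Cldn11 was at 0, 5.86 and 6.91 CPM and Foxc2 at 20.4, 12.6 and 34.6 CPM in capillary cells, below Foxp2 cells in every library (log2 ratios -0.86, -1.81 and -0.87 for Foxc2, and -2.43 and -2.17 for Cldn11 in adult WT and young WT, with 0 in capillary and 23.1 CPM in Foxp2 cells of adult Lang-DTA). Gja4 was likewise lower in adult Lang-DTA and adult WT (-1.85 and -0.89), but near its Foxp2 cell level in young WT (-0.23). Itga9 (0.31, -0.12 and 0.09) and the connexin gene Gja1 at 206, 301 and 255 CPM (-0.04, 0.12 and -0.22) lay near their levels in Foxp2 cells, so these 2 markers did not separate the groups.

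**Figure D1:**
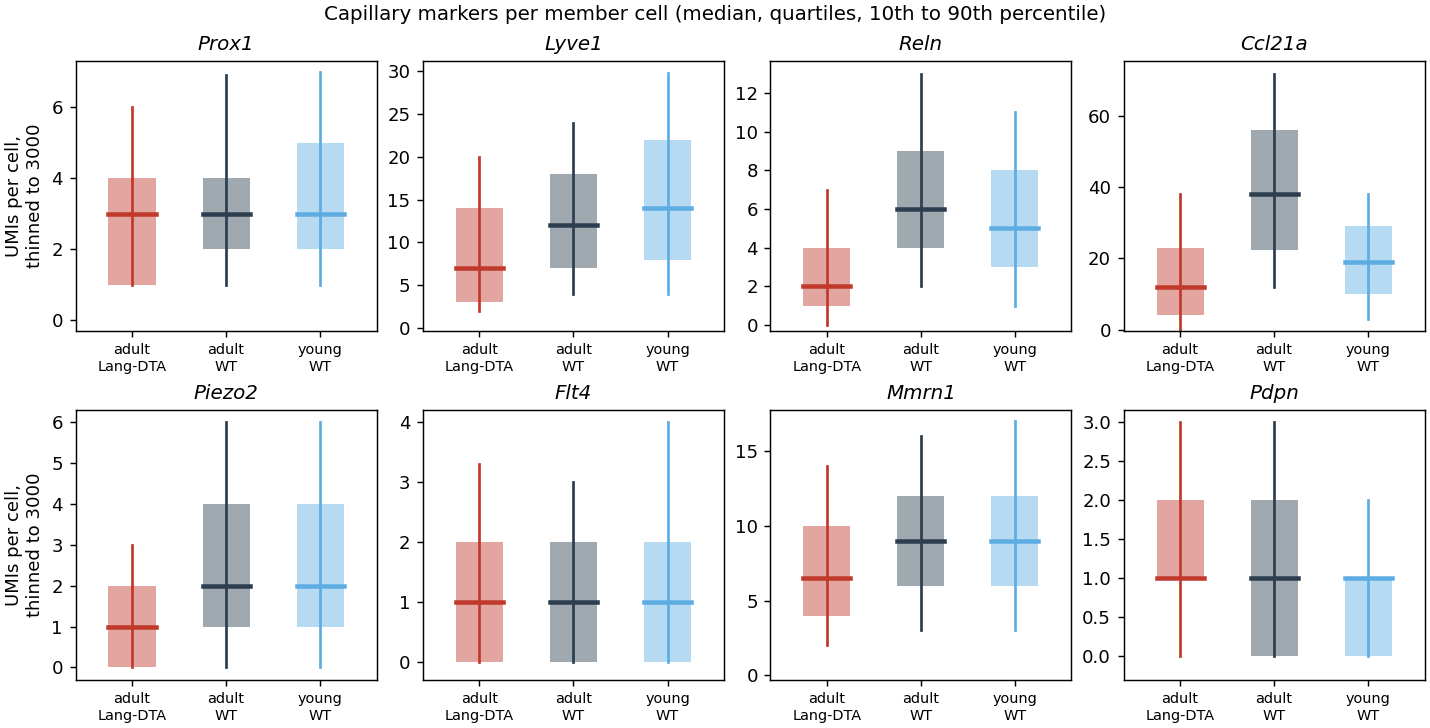
UMIs per capillary cell, each cell thinned to 3000 UMIs, for lymphatic markers (vertical axes) in adult Lang-DTA (188 cells), adult WT (382) and young WT (493). Thick lines are medians, boxes quartiles and thin lines the 10th to 90th percentile over cells. The median of Ccl21a was 12 in adult Lang-DTA, 38 in adult WT and 19 in young WT.

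Ccl21a was the given marker with the widest differences. It stood at 5096, 12728 and 6349 CPM in adult Lang-DTA, adult WT and young WT capillary cells, a log2 ratio of -1.32 (95% interval -1.36 to -1.29) for adult Lang-DTA over adult WT and of 1.0 (0.98 to 1.03) for adult WT over young WT. The adult WT level was the high one, and the other two lay near each other. The shift ran through the cells: between the 10th and 90th percentile thinned cells held 0 to 38 UMIs in adult Lang-DTA, 12 to 71.9 in adult WT and 3 to 38 in young WT. The genotype ratio was -1.57 in male-called and -1.30 in female-called cells, cells being called from Xist and Y-linked UMIs. The genome carries near-identical Ccl21 copies. The Ccl21a UMIs (7980, 30415 and 25727) were all on the copy at chr4:42772860-42773993 (GRCm38), and Ccl21c copies held 4, 4 and 8, so how reads were split between copies is uncertain. Gm21541, at chr4:41903610-41904743 in the same repeated region, stood at 484, 1723 and 265 CPM, with log2 ratios of -1.83 (-1.95 to -1.72) and 2.70 (2.6 to 2.80), and is uncertain for the same reason.

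Of the other given markers, Piezo2 stood at 381, 824 and 886 CPM, a log2 ratio of -1.11, -1.25 to -0.98 for genotype and of -0.11, -0.19 to -0.03 for age. Flt4 stood at 353, 479 and 491 CPM and was within 1.5-fold in both comparisons (-0.44 and -0.03). With cells admitted whatever their Gdf15 and Gpnmb UMIs the genotype ratios of Piezo2 and Flt4 were -1.89 and -0.96. Among the rule genes, Prox1 (967, 1098 and 1151 CPM) as well as Lyve1 (2960.3, 4184 and 5119.9 CPM) stood likewise within 1.5-fold for genotype, whereas Reln stood at 1002, 2117 and 1825 CPM. Mmrn1 stood at 2241, 2963 and 3109 CPM. Pdpn, whose protein podoplanin served in the sort, stood at 462, 322 and 248 CPM.

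A gene was compared between libraries when it reached 10 CPM in the higher one and 50 UMIs over both, and was called when past 1.5-fold. For adult Lang-DTA over adult WT 8155 genes were compared, of which 1077 (13.2%) were higher and 836 (10.3%) lower, with a median log2 ratio of 0.06. For adult WT over young WT 9087 genes were compared, of which 578 (6.36%) were higher and 803 (8.84%) lower, with a median of -0.10. Scaled by the median of ratios, the age comparison had 774 higher and 581 lower genes, so the balance of directions turned with the scaling. The genotype comparison had 896 higher and 958 lower on that scaling. The spread of genotype log2 ratios (interquartile range) was 0.609 in capillary cells and 0.631 in Foxp2 lymphatic cells, against 0.216 in blood endothelial cells and 0.150 in keratinocytes, which had more cells and UMIs. In such sums, fewer cells of a kind and less RNA per cell cannot be told apart. Both comparisons use the adult WT library, so a high or low adult WT level enters them with opposite signs.

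Adult Lang-DTA over adult WT bears on what differs in skin lacking Langerhans cells. Of the 12 named genes higher in adult Lang-DTA capillary cells, several encode secreted or matrix proteins. Adm (chr7:110627661-110629820, GRCm38), the gene of the vasoactive peptide adrenomedullin, stood at 297 CPM in adult Lang-DTA, against 11.3 CPM in adult WT and 24.4 CPM in young WT, a log2 ratio of 4.72, 4.16 to 5.33. It was found in 72 of 210 adult Lang-DTA cells, 19 of 436 adult WT cells and 51 of 553 young WT cells. Thbs1, the gene of thrombospondin-1, stood at 308, 27.2 and 77.7 CPM (3.50, 3.13 to 3.90). Lgals1, the gene of galectin-1, stood at 188, 19.2 and 64.7 CPM (3.29, 2.83 to 3.77). Sparc, the gene of a matricellular protein, stood at 693, 145 and 558 CPM (2.26, 2.08 to 2.43), and 29.4% of its adult WT UMIs came from 1 cell. Tslp, the gene of the cytokine thymic stromal lymphopoietin, stood at 85.6, 13.4 and 16.5 CPM (2.68, 2.11 to 3.28). Each of these was highest in adult Lang-DTA cells, with Sparc the only one whose young WT level came near. The sizes depended on which cells were admitted. Leaving out cells with 3 or more UMIs summed over markers of other cell types, Emcn and Mrc1 among them, kept 54, 112 and 114 cells, of a lower median depth (4024, 3738 and 3903 UMIs). The ratio of Adm was then 1.72, on 7 UMIs in adult Lang-DTA and 4 in adult WT. Those of Thbs1, Lgals1, Tslp and Sparc were 2.92, 2.07, 1.28 and 1.03. The Tslp ratio rested on 9 UMIs in adult Lang-DTA and 7 in adult WT. All point values thus kept their direction at smaller sizes, but for Adm and Tslp the UMIs were too few to settle it. In male-called cells Adm stood at 2.82, and in female-called cells at 5.23.

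The other named genes of this direction act inside the cell or at its surface. Stab2, a scavenger receptor gene for hyaluronan, stood at 58.1, 5.02 and 9.13 CPM (log2 ratio 3.53, 2.66 to 4.54). In Foxp2 lymphatic cells its ratio was 4.05, at 37.2 CPM in adult Lang-DTA and 2.25 CPM in adult WT. In blood endothelial cells it was 3.57, but at only 1.04 and 0.0873 CPM, under the 10 CPM asked of compared genes. Odc1, the first enzyme of polyamine synthesis, stood at 308, 49.0 and 51.8 CPM (2.65, 2.36 to 2.96). Anxa3, an annexin gene, stood at 68.3, 8.37 and 13.8 CPM (3.03, 2.33 to 3.80), Mtmr10, of the myotubularin family, at 159.6, 28.9 and 49.1 CPM (2.47, 2.08 to 2.87), and the unnamed 3300005D01Rik at 66.4, 6.28 and 22.5 CPM (3.40, 2.62 to 4.29). Ankrd1 and Ctgf are given below with the Yap targets. With cells bearing other types' markers left out Mtmr10 stood at 1.72. By the naming rule all 12 were higher in male-called as well as in female-called cells.

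Genes named as lower included several that were abundant in adult WT cells. Igfbp5 (chr1:72857932-72874884, GRCm38), which encodes a binding protein of insulin-like growth factors, stood at 172 CPM in adult Lang-DTA, against 1679 CPM in adult WT and 1136 CPM in young WT, a log2 ratio of -3.29, -3.47 to -3.11. It was found in 37 of 210, 328 of 436 and 345 of 553 cells. Etl4 stood at 131, 1027 and 599.9 CPM (-2.97, -3.19 to -2.77). Fmo2, a flavin monooxygenase gene, stood at 9.58, 167 and 27.4 CPM (-4.13, -4.98 to -3.39). Fmo2 was thus high in adult WT alone, whereas Igfbp5 and Etl4 were high at both wild-type ages. Mapt, the gene of the microtubule protein tau, stood at 12.1, 102 and 26.9 CPM (-3.07, -3.82 to -2.39), and Mctp1, the gene of a calcium-binding membrane protein, at 41.5, 271 and 63.7 CPM (-2.71, -3.10 to -2.34). Both again stood highest in adult WT. Mctp1 is abundant in blood endothelial cells (2434 CPM in adult WT), and 17.3% of its adult WT UMIs in capillary cells came from 1 cell. Its ratio was -0.67 once cells with other types' markers were left out and -1.74 without doublet calls. Pcdh17, a protocadherin gene, stood at 26.8, 183 and 83.9 CPM (-2.77, -3.26 to -2.31) and Cacna1e, a calcium channel subunit gene, at 16.6, 91.6 and 90.8 CPM (-2.46, -3.11 to -1.87). The remaining ones were Fxyd1, whose product modulates the sodium pump (-2.72), Ier3 (-2.20), 6430573F11Rik (-2.90), Gadd45g (-2.49) and the tyrosine kinase gene Bmx (-2.28). With cells bearing other types' markers left out Fxyd1 stood at -1.85 and Cacna1e at -1.82. When cells were admitted whatever their Gdf15 and Gpnmb UMIs, Gadd45g turned to 0.55.

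**Figure D2:**
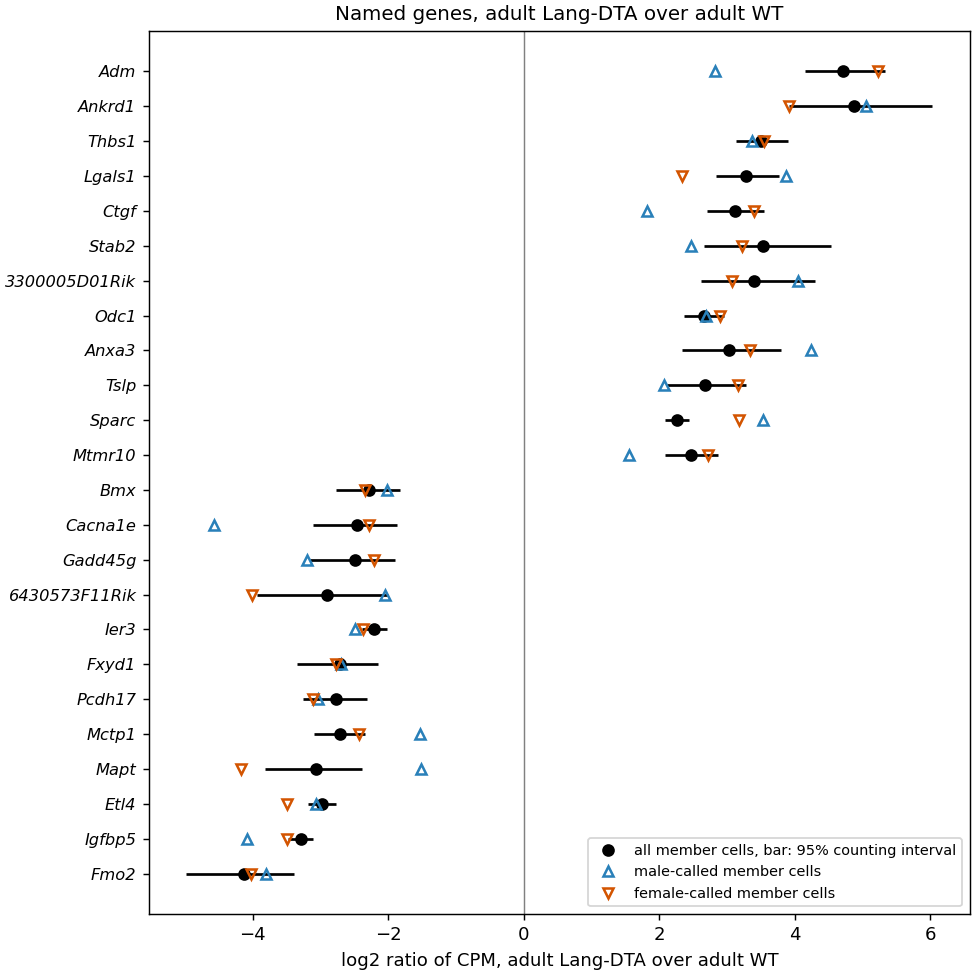
Log2 ratio of CPM, adult Lang-DTA over adult WT (horizontal axis), for the 24 named genes in all capillary cells (bars: 95% counting interval) and in male-called and female-called cells. Adm lies at 4.72 and Fmo2 at -4.13 over all cells. Both sexes lie on the same side of 0 for each gene shown, as the naming rule required.

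Yap and Taz are co-activators that work through Tead transcription factors and respond to stretch and stiffness, and Piezo1 and Piezo2 are stretch-gated channels. Of 11 genes of this list compared for genotype, 5 were higher and 1, Piezo2, was lower in adult Lang-DTA cells, beside 13.2% and 10.3% of all genes, with a median log2 ratio of 0.50, beside 0.06 over all genes. The higher ones were Yap target genes. Ctgf, the gene of connective tissue growth factor, stood at 206, 23.9 and 83.9 CPM (3.11, 2.70 to 3.54). Ankrd1, the gene of an ankyrin repeat protein, had 173 UMIs in 40 cells of adult Lang-DTA, against 9 UMIs in 1 cell of adult WT and 1 UMI in young WT (4.87, 3.92 to 6.03). Cyr61, a matricellular protein gene, stood at 729, 398 and 482 CPM (0.87, 0.75 to 1.0), Amotl2 at 149, 70.3 and 97.7 CPM (1.09, 0.80 to 1.38) and Ajuba at 23.6, 8.37 and 17.0 CPM (1.5, 0.67 to 2.36). The mediators Yap1 (-0.49), Wwtr1, the gene of Taz (0.15), and Tead1 (0.50) and the channel gene Piezo1 (-0.13) lay within 1.5-fold. Over the same genes the median was 0.07 in male-called and 0.60 in female-called cells. Once cells with other types' markers were left out it was -0.05, with Ctgf at 1.16 on 13 UMIs in adult Lang-DTA and 11 in adult WT. Ankrd1 then had 8 UMIs in adult Lang-DTA and 0 in adult WT. For adult WT over young WT, 0 of 10 were higher and 2 lower, Ctgf (-1.81, -2.25 to -1.41) and Ajuba (-1.02, -1.82 to -0.29), beside 6.36% and 8.84% of all genes. Of Ctgf 17.6% of the young WT UMIs came from 1 cell. With cells bearing other types' markers left out its age ratio was -0.60, on 11 UMIs in adult WT and 20 in young WT.

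Promoters of 3 of these target genes, chosen after their values were seen, show the letters known to be bound by Tead factors, GGAATG or its reverse complement CATTCC. Each window runs from 250 bases before to 50 after the RefSeq start of the gene on GRCm38.p6, 5′ to 3′ on the strand of the gene, with these letters in capitals: Ankrd1 at chr19:36119795-36120094 (minus strand), Cyr61, named Ccn1 in RefSeq, at chr3:145649936-145650235 (minus strand), and Amotl2 at chr9:102717554-102717853 (plus strand).
Ankrd1: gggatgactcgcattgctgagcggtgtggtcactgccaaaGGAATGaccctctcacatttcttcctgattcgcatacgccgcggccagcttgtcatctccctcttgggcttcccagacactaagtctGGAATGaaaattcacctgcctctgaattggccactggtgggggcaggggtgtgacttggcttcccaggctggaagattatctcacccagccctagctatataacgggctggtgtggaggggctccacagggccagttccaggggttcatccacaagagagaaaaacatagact
Cyr61: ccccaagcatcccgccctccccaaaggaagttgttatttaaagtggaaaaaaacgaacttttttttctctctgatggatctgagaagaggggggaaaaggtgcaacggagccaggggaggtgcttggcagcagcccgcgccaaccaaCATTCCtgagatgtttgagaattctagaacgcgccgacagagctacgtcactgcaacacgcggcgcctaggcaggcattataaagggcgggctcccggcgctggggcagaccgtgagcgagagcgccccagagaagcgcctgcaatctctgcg
Amotl2: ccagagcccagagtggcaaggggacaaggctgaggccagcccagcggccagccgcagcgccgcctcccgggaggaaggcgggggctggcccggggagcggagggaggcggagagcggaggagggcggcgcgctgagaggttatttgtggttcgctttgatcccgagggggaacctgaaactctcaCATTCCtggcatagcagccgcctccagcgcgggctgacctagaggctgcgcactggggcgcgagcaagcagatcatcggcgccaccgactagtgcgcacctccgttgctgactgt
Both strands were searched, for this motif alone. Of the 13 genes of the list 10 had a window and 8 of these (80%) held the letters, beside 16.6% of 27025 genes with a window. The list was compiled in part from known Yap and Tead targets, and a match of letters is not a site shown to be bound.

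**Figure D3:**
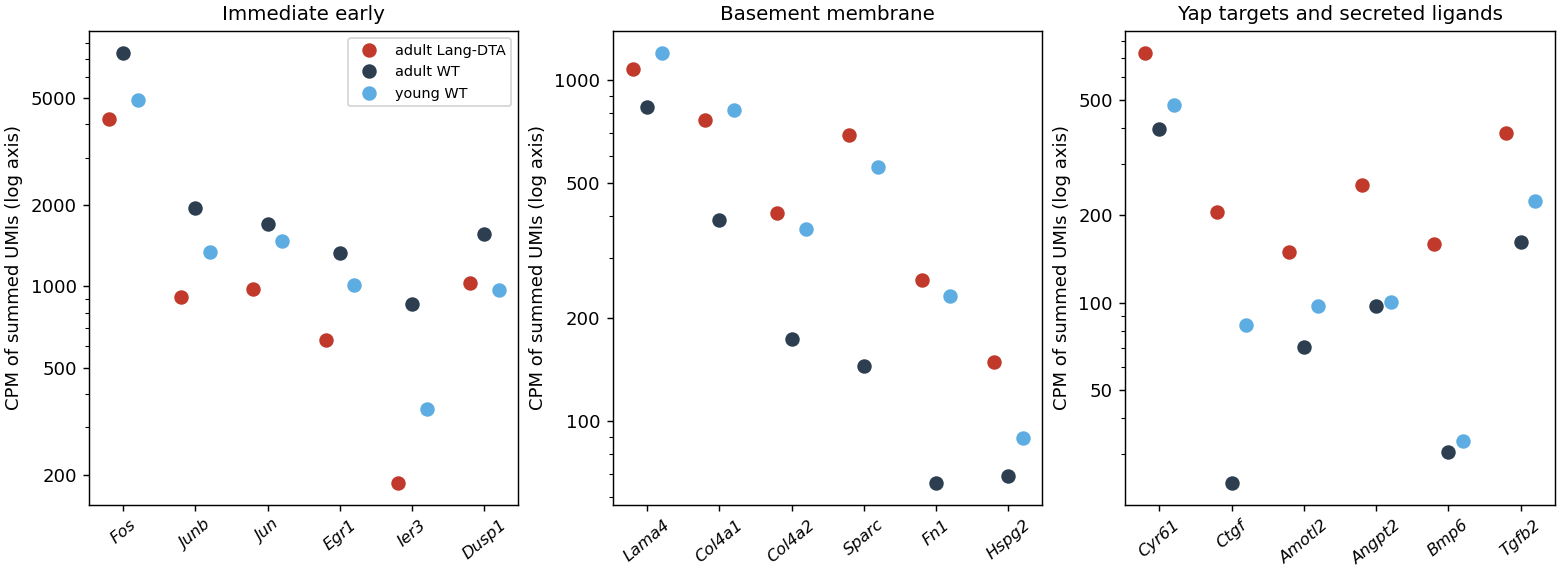
CPM of summed UMIs in capillary cells (logarithmic vertical axes) for members of the immediate early list, the basement membrane list, and Yap targets with secreted ligands, in adult Lang-DTA, adult WT and young WT libraries. Ier3 stood at 186, 858 and 352 CPM and Col4a1 at 764, 388 and 817 CPM in these libraries.

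The basement membrane is the sheet of type IV collagen, laminin, nidogen and perlecan on which endothelium rests, thin or interrupted around lymphatic capillaries. Of 13 listed genes compared for genotype, 7 were higher and 1 lower in adult Lang-DTA cells, beside 13.2% and 10.3% of all genes, with a median log2 ratio of 0.69 beside 0.06. The collagen chain Col4a1 stood at 764, 388 and 817 CPM (0.98, 0.85 to 1.10) and its partner chain Col4a2 at 408, 174 and 366 CPM (1.23, 1.05 to 1.41). Fn1, the fibronectin gene, stood at 259.9, 65.7 and 233 CPM (1.98, 1.71 to 2.26). The most abundant member, the laminin chain Lama4, stayed within 1.5-fold at 1082, 837 and 1206 CPM (0.37, 0.28 to 0.46), as did Col18a1 at 398, 305 and 501 CPM (0.38, 0.22 to 0.54). Hspg2, the perlecan gene (1.11), Nid1, a nidogen gene (0.87), Lamb2 (0.69) and Sparc were the other higher ones, and Col4a5 (-0.74) the lower one. For adult WT over young WT, 0 of 16 were higher and 10 lower, beside 6.36% and 8.84% of all genes, with a median of -0.69 beside -0.10, among them Col4a1 (-1.07), Col4a2 (-1.08), Fn1 (-1.83) and Lamb1 (-1.25). Col4a1, Col4a2, Fn1 and Nid1 were thus lowest in adult WT. Fibroblast markers, at 84.1 CPM in adult WT and 319.8 CPM in young WT capillary cells, and pericyte and smooth muscle markers, at 14.6 and 82.9 CPM, moved with the list. With cells bearing other types' markers left out its median, over the members still compared, was -0.61 for age and 0.48 for genotype. The age median was -0.73 in blood endothelial and -0.69 in Foxp2 lymphatic cells. The genotype median was 0.41 and 0.44 in these cells. In Foxp2 cells fibroblast markers summed to 863.8, 35.7 and 240.0 CPM in adult Lang-DTA, adult WT and young WT. Their part in the Foxp2 medians was not tested. With cells admitted whatever their Gdf15 and Gpnmb UMIs the genotype median was 0.03 in capillary cells.

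Integrins and their linkers anchor capillaries to that matrix. Of 8 genes compared for genotype 3 were higher and 0 lower (median 0.16, with 13.2% and 10.3% of all genes higher and lower). Itgb1, the beta chain shared by most matrix integrins, stood at 904, 529 and 649 CPM (0.77, 0.66 to 0.88), and Itga1 (1.08) and Emilin1 (0.66) were the other higher ones. Itga9, the alpha chain of an integrin needed in lymphatic valves, stood at 303, 292 and 373 CPM (0.05, -0.12 to 0.22). None of the 8 was past 1.5-fold for age. Of 18 junction genes 3 were higher and 1 lower for genotype (median 0.37), beside 13.2% and 10.3% of all genes, and 1 higher and 3 lower for age (-0.24), beside 6.36% and 8.84%. The most abundant ones, the catenin gene Ctnna1 at 948, 699 and 707 CPM (0.44 by genotype), Pecam1 at 812, 696 and 816 CPM (0.22), the tight junction gene Cldn5 at 617, 626 and 932 CPM (-0.02) and the endothelial cadherin gene Cdh5 at 576, 457 and 354 CPM (0.33), stayed within 1.5-fold. The connexin gene Gja4 was lower in adult WT at 46.0 CPM than in young WT at 143 CPM (-1.64, -1.94 to -1.34).

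Chemokines, their scavengers and adhesion molecules guide leukocytes into and along these vessels. Of 14 such genes 2 were higher and 7 lower for genotype (median log2 ratio -0.53), beside 13.2% and 10.3% of all genes, and 7 higher and 0 lower for age (0.46), beside 6.36% and 8.84%. The higher share for genotype was near that of all genes. Beside Ccl21a, Icam1, an adhesion molecule for leukocyte integrins, stood at 270.1, 734 and 447 CPM (-1.44, -1.60 to -1.29 for genotype and 0.72, 0.62 to 0.81 for age). F11r, the gene of a junctional adhesion molecule, stood at 308, 325 and 399 CPM (-0.08, -0.25 to 0.09), and Cd200, the gene of a ligand that restrains myeloid cells, at 317, 287 and 169.5 CPM (0.14, -0.03 to 0.31, and 0.76, 0.61 to 0.92 for age). Ackr2, a scavenger of inflammatory chemokines, stood at 63.9, 124 and 53.3 CPM (-0.96, -1.30 to -0.63 and 1.22, 0.96 to 1.48). Ackr3, a scavenger of Cxcl12 and adrenomedullin, stood at 106, 188 and 164 CPM (-0.83, -1.09 to -0.57). Ccl21a, Icam1, Ackr2 and Ackr3 were thus all highest in adult WT. Ccl2, a monocyte attractant, ran the other way at 224, 45.6 and 26.4 CPM (2.30, 1.98 to 2.62), but 31.6% of its adult Lang-DTA UMIs came from 1 cell, and the ratio was 5.09 in male-called and 0.29 in female-called cells. Selp, the venular adhesion molecule P-selectin, stood at 7.02, 149 and 7.65 CPM, with 42.5% of the adult WT UMIs in 1 cell.

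Surface and scavenging genes of capillaries were 1 higher and 4 lower of 14 for genotype (median -0.45) and 2 higher and 1 lower of 13 for age (-0.03). Over all genes 13.2% were higher and 10.3% lower for genotype, and 6.36% and 8.84% for age. Timp3, an inhibitor of matrix proteases, stood at 1257, 3012 and 2168 CPM (-1.26, -1.33 to -1.19), Pard6g, a cell polarity gene, at 561, 916 and 891 CPM (-0.71, -0.82 to -0.59) and Mrc1, the mannose receptor gene, at 51.7, 105 and 109 CPM (-1.03, -1.41 to -0.66). All were lower in adult Lang-DTA. Lymphatic fate regulators were 2 higher and 6 lower of 14 for genotype (-0.32) and 2 higher and 1 lower of 14 for age (0.05). Their higher share for genotype was near that of all genes. The flow-responsive factors Klf4 at 917, 1834 and 1274 CPM (-1.0, -1.09 to -0.91) and Klf2 at 973, 1612 and 1297 CPM (-0.73, -0.82 to -0.64) and the nuclear receptor Nr2f2, a partner of Prox1, at 647, 1129.9 and 978 CPM (-0.80, -0.91 to -0.70) were lower in adult Lang-DTA cells. Sox18, which switches Prox1 on in the embryo, was higher at 225, 123 and 118 CPM (0.87, 0.65 to 1.10).

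Vascular growth factor systems differed member by member. Angpt2, a ligand of the receptor Tie2, stood at 254, 97.5 and 100.4 CPM (1.38, 1.15 to 1.62), and Tek, the gene of Tie2, at 86.2, 126 and 198 CPM (-0.54, -0.85 to -0.24). Nrp2, a co-receptor of Flt4 (-0.46), and Kdr, the gene of Vegfr2 (-0.33), lay within 1.5-fold for genotype. Over all genes 13.2% were higher and 10.3% lower for genotype, the shares beside which the counts of this paragraph stand. Genes of transforming growth factor and bone morphogenetic protein signalling were 4 higher and 2 lower of 13, with a median of 0.33. Over the members then compared, the median was -0.01 once cells with other types' markers were left out. It was -0.14 whatever the Gdf15 and Gpnmb UMIs. The receptor Tgfbr2 stood at 626, 595 and 768 CPM (0.07, -0.05 to 0.19), the ligand Tgfb2 at 385, 162 and 225 CPM (1.246, 1.06 to 1.43) and the ligand Bmp6 at 159.6, 30.5 and 33.3 CPM (2.39, 2.0 to 2.78). Notch genes were 2 higher and 4 lower of 11 (-0.39), with the receptor Notch1 at 185, 273 and 304 CPM (-0.56, -0.77 to -0.36), the ligand Dll4 at 54.9, 110.1 and 88.4 CPM (-1.0, -1.37 to -0.65) and the target Hey1 at 19.8, 59.8 and 54.0 CPM (-1.60, -2.21 to -1.03). Semaphorins and plexins were 2 higher and 2 lower of 9 (-0.11). Among them Sema6a stood at 879, 1533 and 1206 CPM (-0.80), and the receptor genes Plxna4 (-1.28) and Plxnd1 (2.18) lay on opposite sides.

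Immediate early genes respond within minutes to growth factors, flow or tissue handling. Of 21 such genes 0 were higher and 14 lower in adult Lang-DTA cells, beside 13.2% and 10.3% of all genes, with a median log2 ratio of -0.80 beside 0.06, and 7 were higher and 0 lower in adult WT over young WT cells (0.49), beside 6.36% and 8.84%. Fos stood at 4193, 7361 and 4918 CPM (-0.81, -0.85 to -0.77 for genotype), Junb at 916, 1959.7 and 1339 CPM (-1.10, -1.18 to -1.01), Jun at 975, 1703 and 1471 CPM (-0.80, -0.89 to -0.72) and Dusp1, a phosphatase gene that damps the response, at 1029, 1562 and 970.1 CPM (-0.60, -0.69 to -0.52). Klf6 (0.13) and Myc (0.27) were the members above 0. The genotype median was -1.05 in Foxp2 lymphatic cells and -0.10 in blood endothelial cells. It was -1.28 in male-called and -0.71 in female-called capillary cells. Once cells with other types' markers were left out it was -1.75, over the members still compared. Glucocorticoid-responsive genes were 0 higher and 5 lower of 11 for genotype (-0.51), among them Klf9 (-1.04) and Tsc22d3 (-1.25). Heat shock genes were 0 higher and 3 lower of 13 (-0.36).

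MHC class I genes, which present peptides to CD8 T cells, had medians above 0 in both comparisons. For genotype 4 of 10 were higher and 0 lower (median 0.52), beside 13.2% and 10.3% of all genes, and for age 5 of 10 were higher and 0 lower (0.54), beside 6.36% and 8.84%. B2m, the shared light chain, stood at 674, 313 and 179 CPM (1.10, 0.97 to 1.24 for genotype and 0.81, 0.66 to 0.96 for age), H2-D1 at 444, 275 and 211 CPM (0.69, 0.54 to 0.85 and 0.38, 0.23 to 0.53) and H2-K1 at 271, 167 and 107 CPM (0.70, 0.50 to 0.91 and 0.63, 0.43 to 0.83). B2m and H2-K1 thus stood lowest in young WT and highest in adult Lang-DTA cells. Over the same genes the genotype median was -0.30 in the 53 and 155 male-called cells and 0.92 in the 131 and 196 female-called cells. Interferon-induced genes were 6 higher and 3 lower of 18 for genotype (0.21, with -0.37 in male-called and 0.62 in female-called cells), and 6 higher and 1 lower of 17 for age (0.41). Ifitm3, an antiviral membrane protein gene, stood at 991, 929 and 623 CPM (0.09, 0.00 to 0.19), Bst2, the gene of tetherin, at 342, 148 and 162 CPM (1.21, 1.01 to 1.4), and the transcription factor gene Irf1 at 89.4, 326 and 211 CPM (-1.86, -2.13 to -1.60). Members of the list thus lay on both sides.

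Glycolytic and hypoxia genes were 7 higher and 4 lower of 15 for genotype (median 0.51), beside 13.2% and 10.3% of all genes. For age they were 2 higher and 1 lower of 17 (0.07), beside 6.36% and 8.84%. Adm is counted among them. The enzyme genes Gapdh at 279.7, 144 and 149 CPM (0.96, 0.75 to 1.17), Aldoa at 255, 161 and 165 CPM (0.67, 0.46 to 0.87) and Eno1 at 142, 65.7 and 94.5 CPM (1.12, 0.81 to 1.42) were higher in adult Lang-DTA cells, while the glucose transporter gene Slc2a1 (-1.26) and Pfkfb3, an activator of the pathway (-1.16), were lower. Lysosomal and proton pump genes were 7 higher and 2 lower of 24 (0.20), led in level by Cd63 at 713, 443 and 532 CPM (0.69, 0.56 to 0.81). Stress response and p53 target genes were 3 higher and 3 lower of 13 (-0.13). With cells admitted whatever their Gdf15 and Gpnmb UMIs these 2 medians were 1.01 and 1.29, so the limit of the rule bears on both.

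Smaller lists had few compared members. Over all genes 13.2% were higher and 10.3% lower for genotype, and 6.36% and 8.84% for age. Coagulation and fibrinolysis genes were 2 higher and 2 lower of 11 for genotype, with Anxa2, a surface cofactor of plasmin formation, at 1204, 595 and 867 CPM (1.02, 0.92 to 1.12). All 3 complement genes compared were lower, among them Serping1, the gene of the C1 inhibitor, at 57.5, 163 and 94.5 CPM (-1.51, -1.85 to -1.17). Of 4 retinoic acid genes 3 were lower, and the receptor gene Rarb had 1, 53 and 67 UMIs in adult Lang-DTA, adult WT and young WT. None of 24 cytosolic ribosomal protein genes (median 0.08) or of 5 sphingosine-1-phosphate genes (0.01) was past 1.5-fold for genotype. Wnt genes were 1 higher and 1 lower of 7, clock genes 1 and 2 of 12, fatty acid genes 2 and 2 of 11, and cholesterol genes 2 and 0 of 12. MHC class II genes summed to 8.30, 34.7 and 59.5 CPM. None reached the floor for genotype, and 3 of 3 were lower for age (median -0.99), among them H2-Aa at 0.639, 7.95 and 15.8 CPM, of which 53.1% of the young WT UMIs came from 1 cell.

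**Figure D4:**
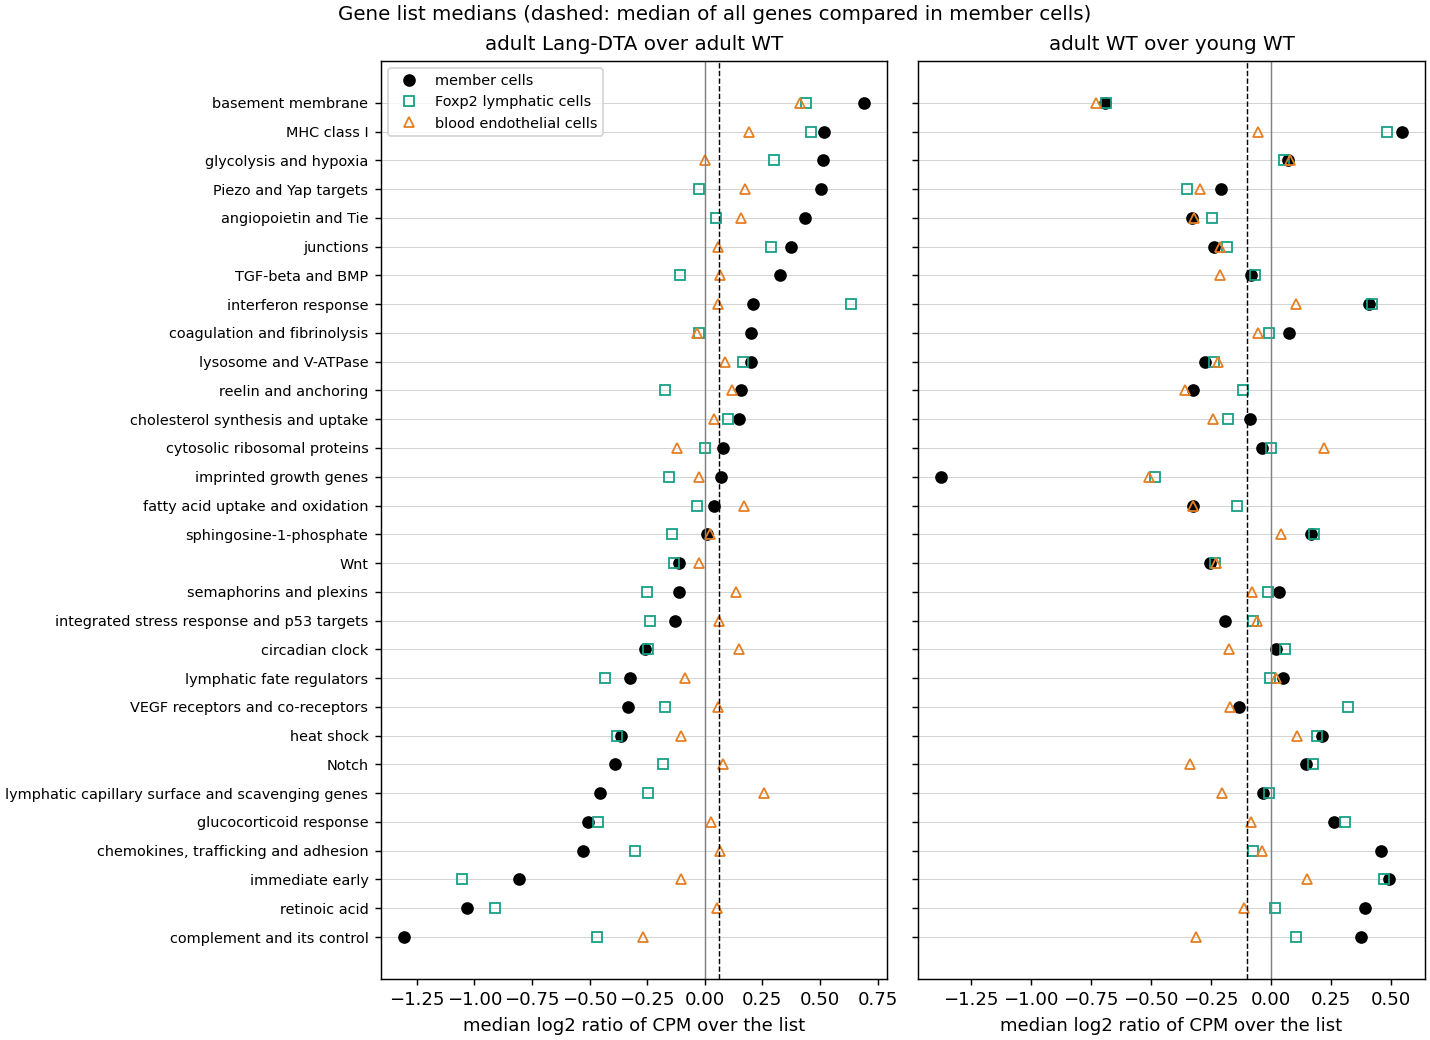
Median log2 ratio of CPM over the compared genes of each list (horizontal axes) for adult Lang-DTA over adult WT and for adult WT over young WT, in capillary cells, Foxp2 lymphatic cells and blood endothelial cells. Medians over all genes in capillary cells were 0.06 and -0.10, and basement membrane genes lay at 0.69 and -0.69.

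Adult WT over young WT bears on what differs between ears of 8 and 4 weeks. Of 13 in the list of imprinted and growth genes, 0 were higher and 9 lower, beside 6.36% and 8.84% of all genes. Their median log2 ratio was -1.37, against -0.48 in Foxp2 lymphatic cells and -0.51 in blood endothelial cells. Fibroblast markers, at 84.1 CPM in adult WT and 319.8 CPM in young WT capillary cells, moved with the list. Once cells with other types' markers were left out the median was -0.17, but only over the members that could still be compared. H19, an imprinted RNA, stood at 7.53 CPM in adult WT and 57.7 CPM in young WT (-2.94, -3.72 to -2.25). With those cells left out it had 1 UMI in adult WT and 28 in young WT (-4.54). It was then under 50 UMIs and outside that median. Its ratio was -3.42 in Foxp2 lymphatic cells. In blood endothelial cells it was -4.69, at 0.146 and 3.77 CPM, under 10 CPM in both libraries. Igf1, a growth factor gene, stood at 10.5 and 50.3 CPM (-2.27, -2.93 to -1.66), and Igf2bp3, an RNA-binding protein gene, at 7.95 and 39.7 CPM (-2.32, -3.09 to -1.63). Their ratios were -1.42 and -2.25 in Foxp2 lymphatic cells, and -0.18 and -0.11 in blood endothelial cells. In the latter Igf2bp3 was under 10 CPM, at 3.14 and 3.40 CPM. With cells bearing other types' markers left out Igf1 stood at -1.4.

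Il31ra, a subunit gene of the interleukin-31 receptor, stood at 83.7 CPM in adult WT and 451 CPM in young WT capillary cells (-2.43, -2.65 to -2.22). Its ratios in blood endothelial cells (-2.50) and keratinocytes (-2.30) were of the same size. Rhou, a small GTPase gene, stood at 11.3 and 56.8 CPM (-2.33, -2.96 to -1.75). Its ratio was -1.19 in Foxp2 lymphatic cells and -0.37 in blood endothelial cells, where it stood at only 1.14 and 1.47 CPM. The other named genes lower in adult WT were Fn1, Ctgf, Gja4, Lgals1 (-1.75), Gm26561 (-1.55), Sparc (-1.94) and Col8a1 (-4.81). Of Col8a1 53.2% of the young WT UMIs came from 1 cell, and once cells with other types' markers were left out it stood at -1.06, Rhou at -1.26 and Sparc at 0.10.

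Among genes higher in adult WT, Fxyd1 (chr7:31051678-31057199, GRCm38) stood at 113 CPM in adult WT and 15.3 CPM in young WT (2.89, 2.49 to 3.31), with UMIs in 184 of 436 and 48 of 553 cells. Its ratio was 2.18 in Foxp2 lymphatic cells. In blood endothelial cells it was -0.38, at 6.02 and 7.85 CPM, under the 10 CPM asked of compared genes. The level of Fxyd1 was 17.2 CPM in adult Lang-DTA capillary cells. Fmo2 (2.61, 2.30 to 2.93) and Mctp1 (2.09, 1.88 to 2.30) were likewise highest in adult WT. Mctp1, however, stood at 0.52 in female-called cells and at 0.78 once cells with other types' markers were left out. Mt1, a metallothionein gene, stood at 103 and 23.4 CPM (2.13, 1.78 to 2.49), and Iigp1, an interferon-induced GTPase gene, at 134 and 28.1 CPM (2.26, 1.94 to 2.58). Both were larger in male-called cells, at 4.64 for Mt1 and 3.34 for Iigp1, than in female-called cells, at 0.75 and 0.72. Hes1, a Notch target gene, stood at 1469.7 and 336 CPM (2.13, 2.04 to 2.22), and its ratios in blood endothelial cells (1.68) and keratinocytes (1.98) were near that. The same held of the ribosomal genes Rps29 (2.15, 2.42 and 2.04 in capillary cells, blood endothelial cells and keratinocytes) and Rpl38 (1.83, 1.98 and 1.84), of Nmt1 (2.70, 2.10 and 2.48) and of Gm44511 (2.6, 2.66 and 2.47). These 5 genes thus differed between the libraries in all 3 cell groups. Of Calm4 (3.65) 88.0% of the adult WT UMIs came from 1 cell, and it stood at -1.34 in cells of 3000 to 15000 UMIs.

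**Figure D5:**
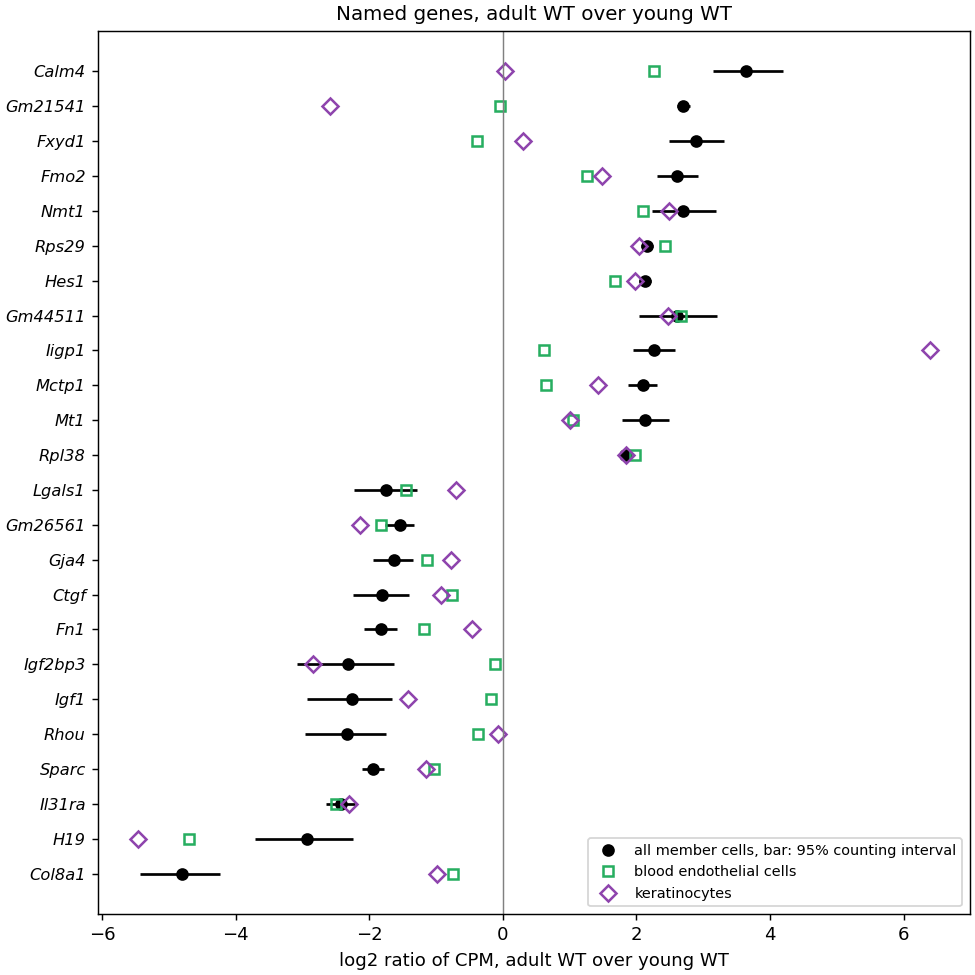
Log2 ratio of CPM, adult WT over young WT (horizontal axis), for the 24 named genes in capillary cells (bars: 95% counting interval), blood endothelial cells and keratinocytes. Rps29, Rpl38, Gm44511 and Il31ra lie close together in all 3 cell groups. Fxyd1 lies at 2.89 in capillary cells and -0.38 in blood endothelial cells, where its level was under 10 CPM.

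Capillary cells were last set beside Foxp2 collecting-type lymphatic cells (2 or more UMIs of Foxp2; 131, 478 and 1528 cells in adult Lang-DTA, adult WT and young WT) within each library. Since the rule chose the cells by measured values, these ratios are descriptions. Of 5366 genes compared, 50 (0.932%) were higher past 1.5-fold in all 3 libraries and 87 (1.62%) lower. Ptx3, the gene of the secreted pattern receptor pentraxin-3, stood at 193 and 38.2 CPM in capillary and Foxp2 cells of adult Lang-DTA, 64.9 and 7.88 CPM in adult WT and 63.9 and 21.3 CPM in young WT. Ackr2 stood at 63.9 and 25.1, 124 and 43.9 and 53.3 and 14.7 CPM in the same order. Both were higher in capillary cells of every library. So were the adaptor protein gene Shc3 (log2 ratios 2.88, 1.81 and 1.82), Pld5 (3.13, 1.58 and 1.65), Itih5, of a family of hyaluronan-binding proteins (1.36, 1.47 and 1.33), and Mrc1 (2.36, 0.98 and 1.11). Khdrbs3, Gm21541, Cd109, Enpp3 and Fgf12 were named with them, at ratios of 0.98 to 1.76, as was Krt2, of which 94.9% of the adult WT UMIs came from 1 cell.

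Lower in capillary than in Foxp2 cells of every library were Ccdc3 (-3.11, -3.27 and -3.13), the growth factor gene Tgfa (-2.52, -3.18 and -2.68), Nos3, the endothelial nitric oxide synthase gene (-1.55, -1.35 and -1.90), and Slco2a1, a prostaglandin transporter gene (-2.10, -1.34 and -2.19). Fmo2 stood at 9.58 and 63.3 CPM in capillary and Foxp2 cells of adult Lang-DTA, 167 and 521 CPM in adult WT and 27.4 and 219.8 CPM in young WT, so its adult WT level was the highest of the 3 libraries in both cell types. Hs6st3, Pid1, Pcdh7, 9530026P05Rik, Kif26b and Epha4 were named with them.

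Capillary cells also differed among themselves within a library. At 3000 UMIs a cell, the variance of Fos was 17.4, 21.6 and 18.2 times its mean in adult Lang-DTA, adult WT and young WT cells, where the median over 2647 genes was 1.18, 1.18 and 1.16. Among the 15 most variable genes were Fos, Atf3, Junb, Jun, Zfp36, Egr1 and Dusp1 of the immediate early list and Klf2. Ccl21a had ratios of 22.4, 14.4 and 9.11 and Igfbp5 of 7.57, 8.54 and 8.27. Igfbp5 was found in 13.8%, 71.5% and 56.6% of thinned cells, Fos in 67.6%, 83.0% and 70.2% and Icam1 in 23.4%, 45.3% and 33.9%. For these 3 genes adult WT thus had the largest and adult Lang-DTA the smallest share of positive cells. Vim, the gene of the filament protein vimentin, ran the other way, with a mean of 18.7, 8.79 and 13.1 UMIs per thinned cell. Fabp4, a fatty acid carrier gene, varied through few cells, with UMIs in 6.91%, 5.76% and 4.06% of them. The nuclear RNA Malat1 and Gm42418 were the other 2 of the 15.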

How the data were processed

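The deposited values are counts of UMIs for each gene and cell barcode, made by the authors with Cell Ranger 8.01 on GRCm38, per the submitters' processing notes. Which annotation release was used, whether intronic reads were counted and whether free RNA was removed is not given in the sources used here. The protocol aimed to capture 20000 cells a library, and the files hold 13540, 13600 and 12864 barcodes and 124590777, 128595813 and 137441575 UMIs for adult Lang-DTA, adult WT and young WT. Barcodes with at least 500 genes, 1000 UMIs and at most 10% mitochondrial UMIs were kept (12941, 12621 and 12399).

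UMIs were summed over the member cells of a library and scaled to a sum of 1000000 (CPM). Log2 ratios carry an exact conditional binomial 95% interval, which covers counting error only. A compared gene reached 10 CPM in the higher library and 50 UMIs over both. On simulated counts with 2-fold changes the direction was right for 100% of changed genes, and 93% (genotype) and 99% (age) were past 1.5-fold. Of unchanged genes 3.08% and 2.13% were past 1.5-fold. The simulation held counting error only, without differences between cells, mice or libraries. Members, gene lists and rules were chosen with earlier results of these data known.

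Named genes for a comparison had at least 100 UMIs over both libraries, 30 CPM in the higher one, at least 0.1 of their level over all barcodes and a ratio past 1.5-fold, with at least 1.25-fold in the same direction in male-called and female-called cells. The 12 in each direction with the interval limit farthest from 0 were named. The sex of each cell was called from its UMIs of Xist and of Y-linked genes, and 26, 85 and 52 cells were not called. Against Foxp2 cells, genes with 30 CPM in the higher cell group of every library were ranked by their ratio nearest 0 over the libraries, and the first 12 in each direction were named. Variable genes were the 15 with the highest ratio of variance to mean among genes with a mean of at least 0.2 UMIs in cells thinned to 3000 UMIs. Each list was to be shown by the 2 to 4 members of highest level, and other list members were named after their values were seen. Not every gene that met these rules is reported here. Doublets were kept, and a caller from simulated doublets marked 15, 16 and 25 capillary cells. Gene positions matched 31011 of 31053 gene IDs, and 35 symbols had more than 1 ID. Promoters are those of RefSeq on GRCm38.p6. Computation used Python 3.11.15 with pandas 2.3.3, numpy 2.4.6, scikit-learn 1.9.0, scipy 1.17.1 and matplotlib 3.10.9.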

Additional observations from a re-analysis of the deposited data

Results flagged for a closer look

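The genes below were picked out because their ratios, past 1.5-fold and with counting intervals that left out 0, pointed in opposite directions in 2 groups of cells under the same comparison. None of these differences was tested, and each group is 1 library.

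For adult Lang-DTA over adult WT, Mt1, a metallothionein gene, had a log2 ratio of -0.95 in male-called capillary cells (29 UMIs in adult Lang-DTA and 132 in adult WT) and of 0.74 in female-called ones (65 and 41 UMIs). Nid2, a nidogen gene of the basement membrane, had 0.81 in male-called cells (38 and 51 UMIs) and -0.74 in female-called cells (50 and 88 UMIs).

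For adult WT over young WT, Ccl2 had a log2 ratio of 0.79 in capillary cells (109 UMIs in adult WT and 107 in young WT) and of -0.88 in Foxp2 lymphatic cells (50 and 424 UMIs). The MHC class II genes H2-Aa and H2-Eb1 had -0.99 and -1.41 in capillary cells (19 and 14 UMIs in adult WT, 64 and 63 in young WT). In Foxp2 cells they had 0.74 and 1.29 (24 and 27 UMIs in adult WT, 66 and 51 in young WT). Without the cell with the most UMIs of the gene in each library, the capillary ratios were -0.15 for H2-Aa, -0.35 for H2-Eb1 and 0.57 for Ccl2, each under 1.5-fold, and the Foxp2 ratio of H2-Aa was 0.20. Of the young WT capillary UMIs 53.1% of H2-Aa and 55.6% of H2-Eb1 came from 1 cell. The opposite directions of H2-Aa and H2-Eb1 past 1.5-fold thus rested on single cells. Ccl2 kept opposite directions without such cells, at 0.57 (0.12 to 1.01) in capillary cells and -1.16 (-1.68 to -0.67) in Foxp2 cells. In male-called capillary cells H2-Aa stood at 0.01. Mt1 and Nid2 stayed past 1.5-fold in opposite directions without such cells.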

How the results depend on the processing

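No paired analysis was possible because each condition is 1 library and no test was made. Of the alternatives to each named gene's ratio, 469 stayed within the counting interval, 175 moved beyond it, and 3 turned a ratio past 1.5-fold to the other side of 0. A change of sign was counted only for ratios past 1.5-fold. Smaller ratios also crossed 0, such as those for age of Flt4 (-0.03, and up to 0.10) and Piezo2 (-0.11, and up to 0.12). Of list medians 764 stayed and 64 moved, and of counts of genes and cells 59 stayed and 27 moved by over 1.5 times. A list median counted as staying when it moved by no more than the typical counting error of its single genes. That band is wide for genes of few UMIs, so a median that stayed could still shift. Each alternative list median was taken over the members compared under that alternative, so the members behind a median could differ from those of the main run.

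Without a CPM floor 4724 genes were higher and 2836 lower for genotype, and 3979 and 2928 for age, since genes of few UMIs then entered. With a floor of 50 CPM these counts were 542 and 426 for genotype and 236 and 178 for age. Leaving out cells with 3 or more UMIs of other types' markers kept 54, 112 and 114 cells of adult Lang-DTA, adult WT and young WT, with 300 higher and 393 lower for genotype and 320 and 418 for age, where fewer genes could be compared. Sparc then stood at 0.10 for age, and the fatty acid list, over its members still compared, had a genotype median of 1.02. There were 53, 155 and 270 male-called and 131, 196 and 231 female-called cells. With every limit at 0 UMIs, an alternative added after seeing the data, 95, 223 and 251 cells stayed.

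Admitting cells whatever their Gdf15 and Gpnmb UMIs gave 427 adult Lang-DTA cells and genotype counts of 2054 higher and 1629 lower. Gadd45g then stood at 0.55, the Piezo and Yap list at a median of 0.86 and the clock list at 1.22. Calm4 for age stood at -1.34 in cells of 3000 to 15000 UMIs, 0.46 without doublet calls and 0.33 in female-called cells. Sparc stood at -0.38 in cells of 3000 to 15000 UMIs. The cause of these shifts was not tested. Apart from these and Mctp1, no ratio of the genes named by rule for genotype or age was under 1.5-fold in any alternative run. Depth limits all of this: genes under 10 CPM in both libraries were not compared.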
